A study of Mus musculus with 8 samples.

Results

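This account follows 10 genes that respond to ERK signalling in mouse embryonic stem cells, out of 55292 features in the deposited count table. They were chosen by symbol, and all 10 were present: the phosphatases Dusp4 and Dusp6, the pathway inhibitors Spry2, Spry4 and Spred1, the transcription factors Etv4 and Etv5, and the immediate early genes Egr1, Fos and Ier2. ERK is the last kinase of a cascade that runs from growth factor receptors through Ras, Raf and MEK. In mouse embryonic stem cells it is driven largely by Fgf4 that the cells secrete themselves, and it is known for moving them out of naive pluripotency. Active ERK switches on immediate early genes within minutes through serum response factor and its ETS partners. It also induces its own inhibitors, which makes the feedback genes widely used readouts of the pathway. ERK activity itself was not measured here.

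The study sequenced poly(A)-selected RNA of the E14 line, which derives from the 129/Ola strain, grown on gelatin with serum and LIF. The groups used here are the lncSmad7-/- knockout transfected with Smad7, named in its labels with a time of 24 h, the untreated lncSmad7-/- knockout, and untreated wild-type E14 cells, with 2 libraries each. lncSmad7 is a long noncoding RNA, and Smad7 is an inhibitor of TGF-beta family signalling. The groups ask what the loss of lncSmad7 changes in these cells and what Smad7 then changes in the knockout. The labels used here describe no mock-transfected knockout and do not say whether the knockout is 1 clone. Smad7, the act of transfection and the time after it therefore cannot be told apart, nor can the loss of lncSmad7 and other differences between the lines. The replicates are called biological, but separate cultures are not mentioned. The p-values therefore cover library-to-library spread, which may be technical. In bulk RNA, fewer expressing cells and less RNA per cell cannot be told apart.

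Total counts were 13392941 and 15972163 in the knockout labelled Smad7-transfected, 20159897 and 19455030 in the knockout, and 19260386 and 20209760 in wild type. The lncSmad7 feature had 167 and 207 counts in the knockout labelled Smad7-transfected, 140 and 105 in the knockout and 237 and 221 in wild type. The sources used here do not place it relative to the deleted part, so these reads do not check the deletion. Smad7 stood at 93.8 and 99.4 CPM (counts scaled to library size with TMM factors) in the libraries labelled Smad7-transfected, 75.5 and 69.6 CPM in the knockout and 97.6 and 97.7 CPM in wild type. It thus reached the wild-type level and no more, while lncSmad7 rose with it, so the group is named below by its label. All 7 embryonic stem cell markers were detected, with summed levels of 4302 to 4319 CPM in the knockout labelled Smad7-transfected, 6416 to 6514 CPM in the knockout and 4550 to 4616 CPM in wild type. The 7 primitive endoderm markers, which include Gata6 and Dab2, summed to 82.4 and 85.7 CPM in the knockout labelled Smad7-transfected, 36.45 and 37.1 CPM in the knockout, and 233 and 227.5 CPM in wild type, and none was at 0 in any group. The 6 trophectoderm markers summed to 9.6 and 9.5 CPM in the knockout labelled Smad7-transfected. Their sums were 9.1 and 8.5 CPM in the knockout, and 33.4 and 30.8 CPM in wild type. In the same order of groups, the 4 neuroectoderm markers summed to 39.9 and 35.2, 52.55 and 51.7, and 61.4 and 58.3 CPM. The 5 mesoderm and primitive streak markers summed to 4.47 to 7.46 CPM over all libraries. The 7 fibroblast and feeder markers summed to 4.66 to 8.76 CPM over all libraries. Col3a1 and Lum were at 0 in both knockout groups, Postn and Dcn were also at 0 in the knockout, and none was at 0 in wild type. The 4 Y-linked genes Ddx3y, Eif2s3y, Kdm5d and Uty together had 158 and 187 counts in the knockout labelled Smad7-transfected, 95 and 78 in the knockout, and 2023 and 2229 in wild type. Mitochondrial transcripts took 2.48% and 2.33% of counts in the libraries labelled Smad7-transfected, 1.40% and 1.37% in the knockout, and 1.58% and 1.53% in wild type. The part of these differences in the results below was not tested.

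The 10 genes did not move as a block. In the knockout labelled Smad7-transfected, 8 were lower than in the knockout and 2 were higher, with Egr1 and Dusp4 falling most and Fos rising most. In the knockout, 6 were higher than in wild type and 4 were lower, with Fos, Egr1 and Dusp4 rising and Etv4 falling most. Between the knockout labelled Smad7-transfected and wild type, 3 were higher, 5 were lower, and Egr1 and Dusp4 did not pass the test. Fos changed most here, at 3.69 on the log2 scale. Directions of Dusp4, Spry2, Spred1, Etv4, Etv5 and Egr1 turned with another scaling or with offsets for GC content and transcript length in 1 or 2 of these comparisons, as given with each gene.

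**Figure D1:**
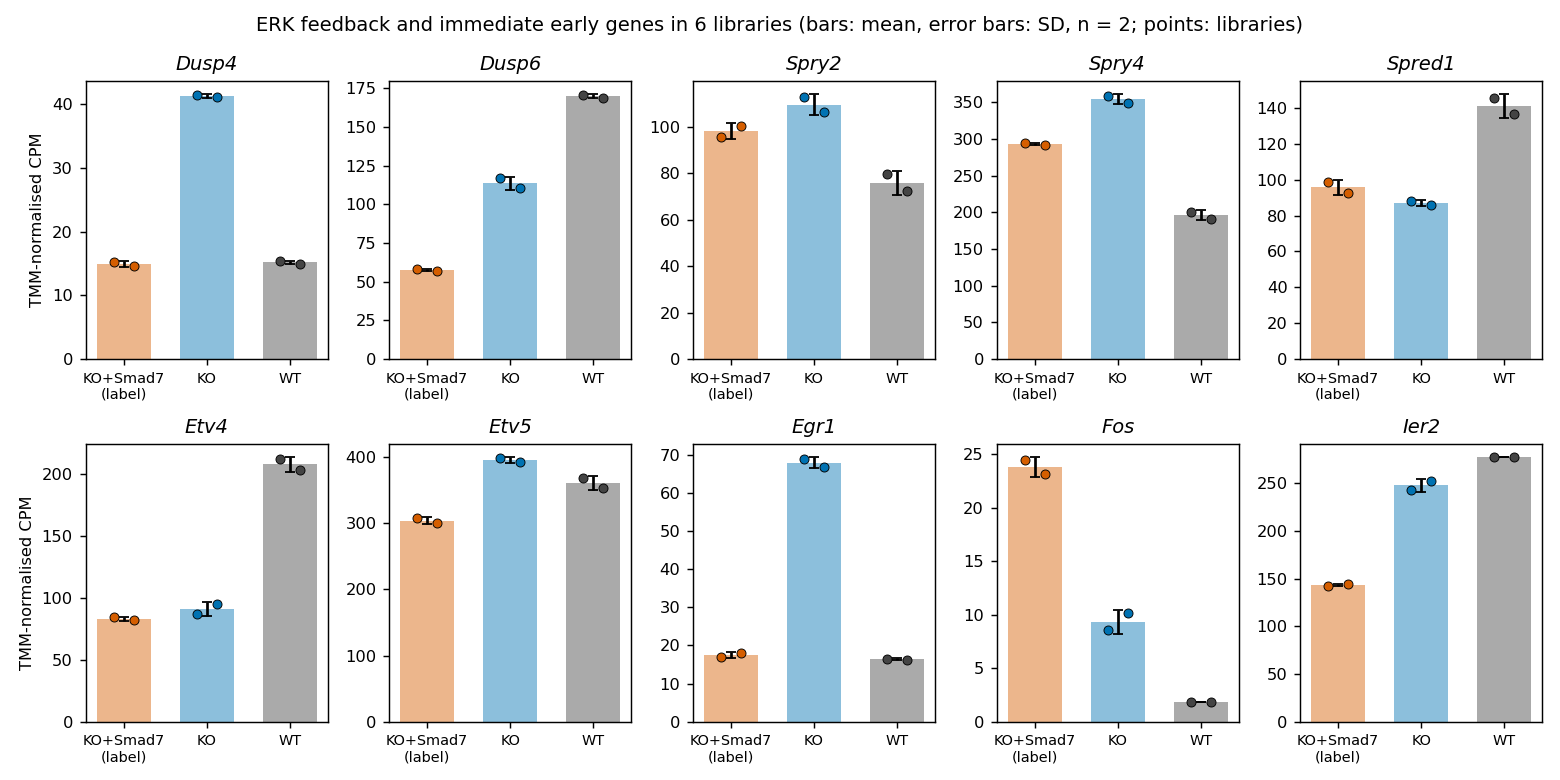
TMM-normalised CPM of the 10 genes, 1 panel a gene with its own axis from 0, in the knockout labelled Smad7-transfected, the knockout and wild type. Bars are means, error bars SDs over 2 libraries, and points single libraries. Egr1 and Dusp4 stand high in the knockout alone, Fos is highest in the knockout labelled Smad7-transfected, and Dusp6 and Ier2 are highest in wild type.

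These counts have to be read against a very broad difference between the groups. By edgeR's quasi-likelihood test at an adjusted p of 0.05, 74.6% of the 17342 genes tested passed between the knockout labelled Smad7-transfected and the knockout, 67.7% between the knockout and wild type, and 81.9% between the knockout labelled Smad7-transfected and wild type. All 10 members passed in the first comparison, all 10 in the second and 8 in the third, and with shares this high these counts say little about the members. By direction, 37.8% of genes tested were higher and 36.8% lower in the first comparison, 34.5% higher and 33.3% lower in the second, and 43.1% higher and 38.8% lower in the third. Against a minimum fold of 1.5 (glmTreat), 5 members passed in the first comparison, where 34.6% of all genes did, 6 in the second, where 27.4% did, and 4 in the third, where 53.1% did. These shares were 20.6% higher and 14.0% lower in the first, 16.0% higher and 11.4% lower in the second, and 30.4% higher and 22.7% lower in the third. The median log2 fold of the members was −0.33, 0.33 and −0.14 in the 3 comparisons, and that of all genes tested was 0.04, 0.02 and 0.09. Scaling by library size alone moved the median of all genes to 0.29, 0.17 and 0.48, so every fold here is relative to the TMM scale. The share of higher genes among those called was 50.7%, 50.9% and 52.6% in the 3 comparisons, and 65.7%, 61.7% and 68.3% with library size scaling. The comparisons share libraries, and none of them is an independent repeat of another. All 10 members passed the filter on low counts. The lowest single count was 31, for Fos in wild type, so no member was tested on the strength of 1 group alone.

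**Figure D2:**
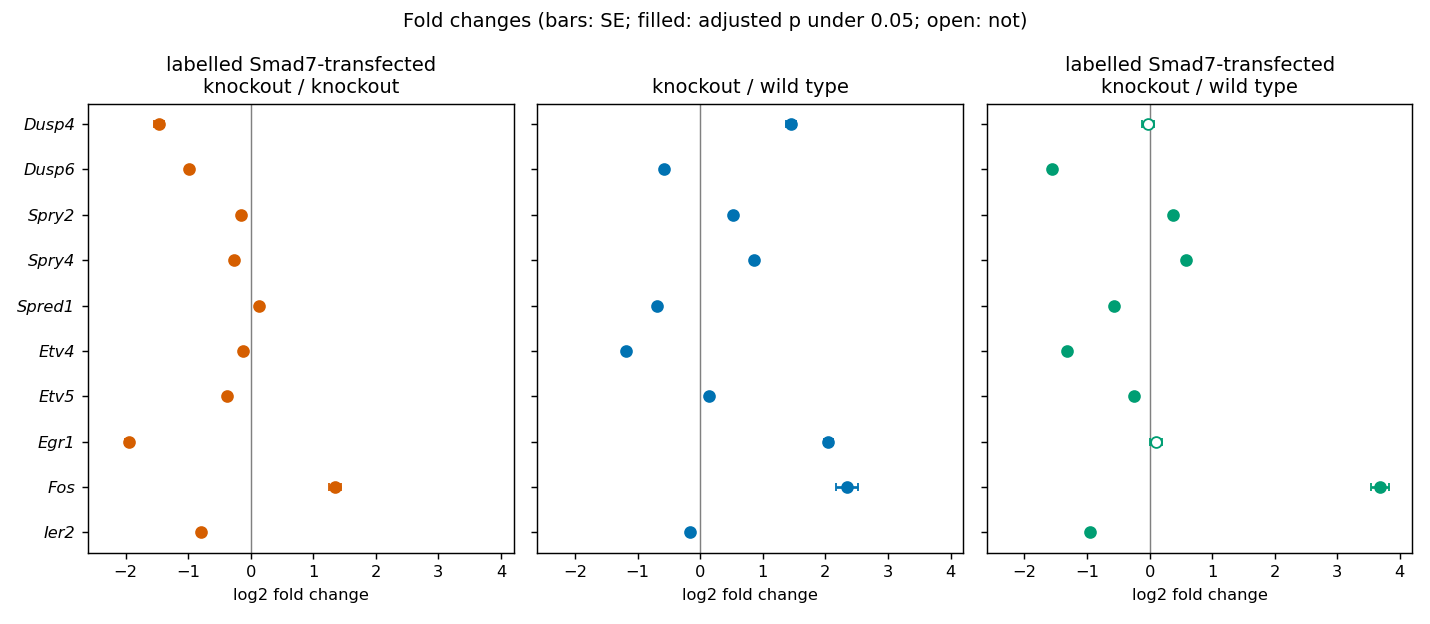
Log2 fold changes of the 10 genes (x axis) in 3 comparisons, with SE as bars. Filled points passed the adjusted p of 0.05 in edgeR's test and open points did not. The open points are Dusp4 at −0.03 and Egr1 at 0.10, both in the knockout labelled Smad7-transfected against wild type; both turned sign under another setting and passed with library size scaling, and the signs of Spry2, Spred1, Etv4 and Etv5 turned in some panels.

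The phosphatases took opposite courses in the knockout. Dusp4 and Dusp6 encode dual specificity phosphatases that remove the activating phosphates from ERK, Dusp4 in the nucleus and Dusp6 in the cytoplasm. Dusp4 (chromosome 8, 34807297 to 34819894, plus strand, GRCm38) had 15.2 and 14.6 CPM in the knockout labelled Smad7-transfected, 41.5 and 41.1 CPM in the knockout, and 15.3 and 15.0 CPM in wild type. The knockout stood apart, and the other groups overlapped. Dusp4 was 2.77-fold lower in the knockout labelled Smad7-transfected than in the knockout (log2 ratio −1.47, SE 0.078, adjusted p = 6.84e-40) and 2.73-fold higher in the knockout than in wild type (1.45, SE 0.077, adjusted p = 1.72e-39). Between the knockout labelled Smad7-transfected and wild type it differed by −0.03 (SE 0.096, adjusted p = 0.812). That value turned to 0.37 (adjusted p = 3.08e-04) with library size scaling.

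Dusp6 (chromosome 10, 99263231 to 99267489, plus strand) was highest in wild type and lowest in the knockout labelled Smad7-transfected. It had 58.3 and 57.2 CPM in the knockout labelled Smad7-transfected, 117 and 111 CPM in the knockout, and 171 and 169 CPM in wild type. No groups overlapped. It was 1.97-fold lower in the knockout labelled Smad7-transfected than in the knockout (log2 ratio −0.98, SE 0.048, adjusted p = 1.36e-43) and 1.49-fold lower in the knockout than in wild type (−0.58, SE 0.041, adjusted p = 9.22e-28). Its ratio to wild type in the knockout labelled Smad7-transfected was 0.34 (−1.56, SE 0.046, adjusted p = 2.72e-69).

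Per kilobase, Dusp4 over Dusp6 was 0.299 and 0.292 in the knockout labelled Smad7-transfected, 0.406 and 0.424 in the knockout, and 0.103 and 0.101 in wild type. The ratio of these 2 transcripts therefore differed from wild type in both knockout groups, with no overlap between libraries. It holds for this pair only, since other nuclear and cytoplasmic ERK phosphatases, such as Dusp5 and Dusp9, are not part of it. Dusp9, described below, rose in the knockout over wild type where Dusp6 fell.

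Sprouty proteins act on the pathway upstream of or at Ras and Raf, and Spred1 brings the Ras inhibitor neurofibromin to the membrane. In the knockout against wild type Spry4 and Spry2 rose and Spred1 fell. Spry4 (chromosome 18, 38586247 to 38601415, minus strand) had 294 and 292 CPM in the knockout labelled Smad7-transfected, 359 and 349.6 CPM in the knockout, and 201 and 191.5 CPM in wild type. It was 1.21-fold lower in the knockout labelled Smad7-transfected than in the knockout (log2 ratio −0.27, SE 0.036, adjusted p = 1.7e-11), which shrank to −0.17 with a filter of 1 CPM in 4 libraries and to −0.02 (adjusted p = 0.531) with library size scaling. In the knockout it was 1.81-fold higher than in wild type (0.85, SE 0.037, adjusted p = 1.67e-48), and in the knockout labelled Smad7-transfected it was 1.495-fold higher (0.58, SE 0.038, adjusted p = 2.73e-31), or by 0.97 on the log2 scale with library size scaling.

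Spry2 (chromosome 14, 105891947 to 105896819, minus strand) had 95.7 and 100.5 CPM in the knockout labelled Smad7-transfected, 113 and 106 CPM in the knockout, and 79.5 and 72.3 CPM in wild type. Its libraries did not overlap between groups, although the first pair of groups lay within 6 CPM of each other at their nearest. It rose in the knockout over wild type (log2 fold 0.53, SE 0.047, adjusted p = 1.85e-20) and also stood above wild type in the knockout labelled Smad7-transfected (0.37, SE 0.049, adjusted p = 5.85e-12, and 0.77 with library size scaling). Against the knockout it stood at −0.16 (SE 0.046, adjusted p = 0.00124), which became 0.09 (adjusted p = 0.0623) with library size scaling and missed the threshold under GC and length offsets (−0.04, adjusted p = 0.397) or a filter of 1 CPM in 4 libraries (−0.06, adjusted p = 0.268).

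Spred1 (chromosome 2, 117121374 to 117182279, plus strand) had 98.7 and 92.6 CPM in the knockout labelled Smad7-transfected, 88.3 and 85.8 CPM in the knockout, and 146 and 136.5 CPM in wild type. Wild type was above both knockout groups. It fell in the knockout to 0.617 of wild type (log2 fold −0.70, SE 0.044, adjusted p = 2.74e-32) and was lower in the knockout labelled Smad7-transfected than in wild type (−0.56, SE 0.044, adjusted p = 9.55e-25). With GC and length offsets the first of these values was −0.33, and with library size scaling the second was −0.17, and both still passed. The difference between the knockout labelled Smad7-transfected and the knockout has no settled direction. It was 0.13 (SE 0.046, adjusted p = 0.00725) with TMM scaling, 0.38 with library size scaling, 0.24 with a filter of 1 CPM in 4 libraries and −0.37 (adjusted p = 2.12e-15) with offsets for GC content and length. The threshold was missed by DESeq2 (0.14, adjusted p = 0.0533), with no filter on low counts (0.09, adjusted p = 0.107), without knockout replicate 2 (0.09, adjusted p = 0.151) or without replicate 1 of the group labelled Smad7-transfected (0.08, adjusted p = 0.193). Its longest transcript has 6016 bases at 41.2% GC, the longest and the most AT-rich of the 10.

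Etv4 and Etv5 are ETS transcription factors of the PEA3 group, induced by FGF signalling, and Etv5 is known to act in the exit from naive pluripotency. They parted company in the knockout. Etv4 (chromosome 11, 101769742 to 101785371, minus strand) had 84.1 and 81.7 CPM in the knockout labelled Smad7-transfected, 86.7 and 94.8 CPM in the knockout, and 212 and 203 CPM in wild type. Both knockout groups lay far below wild type. It was 2.29-fold lower in the knockout than in wild type (log2 fold −1.19, SE 0.042, adjusted p = 4.89e-59) and 2.50-fold lower in the knockout labelled Smad7-transfected (−1.32, SE 0.043, adjusted p = 2.21e-63).

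Between the knockout labelled Smad7-transfected and the knockout, Etv4 differed by −0.13 (SE 0.047, adjusted p = 0.00909). That call did not hold by DESeq2 (−0.12, adjusted p = 0.0897), with GC and length offsets (−0.03, adjusted p = 0.560), with a filter of 1 CPM in 4 libraries (−0.03, adjusted p = 0.584), without knockout replicate 2 (−0.09, adjusted p = 0.174) or without replicate 2 of the group labelled Smad7-transfected (−0.11, adjusted p = 0.0749). Without knockout replicate 1 it was −0.21. With library size scaling it turned to 0.12 (adjusted p = 0.0189).

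Etv5 (chromosome 16, 22381309 to 22439719, minus strand) had 308 and 300.4 CPM in the knockout labelled Smad7-transfected, 399 and 393 CPM in the knockout, and 368 and 353 CPM in wild type. The groups did not overlap, and the spans between them were small beside those of Etv4. Etv5 was 1.30-fold lower in the knockout labelled Smad7-transfected than in the knockout (log2 ratio −0.38, SE 0.036, adjusted p = 7.71e-19), which passed under every alternative run except the minimum fold of 1.5 but shrank to −0.13 with library size scaling. Its rise in the knockout over wild type (0.13, SE 0.036, adjusted p = 4.89e-04) turned to −0.09 (adjusted p = 0.00524) with GC and length offsets. The rise missed the threshold in DESeq2 (0.08, adjusted p = 0.108) or without wild-type replicate 2 (0.10, adjusted p = 0.0527), and was 0.08 with RLE scaling and 0.28 with library size scaling. Against wild type the knockout labelled Smad7-transfected stood at −0.25 (SE 0.037, adjusted p = 8.88e-10), at −0.14 with a filter of 1 CPM in 4 libraries, and at 0.15 (adjusted p = 1.23e-04) with library size scaling.

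Per kilobase of exon, Etv4 over Etv5 was 0.36 in each library of the knockout labelled Smad7-transfected, 0.287 and 0.319 in the knockout, and 0.760 and 0.761 in wild type. The ratio does not depend on the scaling of a library, and no library of either knockout group came near wild type.

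The immediate early genes had 3 different patterns. Egr1, a zinc finger transcription factor with serum response elements in its promoter, lies on chromosome 18 (34859823 to 34864984, plus strand). It had 17.0 and 18.1 CPM in the knockout labelled Smad7-transfected, 69.0 and 66.9 CPM in the knockout, and 16.6 and 16.3 CPM in wild type. The knockout was about 4 times above the other groups, which lay within 2 CPM of each other. Egr1 was 3.86-fold lower in the knockout labelled Smad7-transfected than in the knockout (log2 ratio −1.95, SE 0.068, adjusted p = 7.16e-60), and 92.7% of all genes tested had a smaller fold there. In the knockout it was 4.14-fold higher than in wild type (2.05, SE 0.069, adjusted p = 3.43e-62). Between the knockout labelled Smad7-transfected and wild type it differed by 0.10 (SE 0.090, adjusted p = 0.289). That value was −0.13 with GC and length offsets (adjusted p = 0.169), and passed at 0.49 (adjusted p = 3.25e-07) with library size scaling and at 0.21 (adjusted p = 0.0261) with a filter of 1 CPM in 4 libraries.

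Fos encodes a subunit of the AP-1 transcription factor and lies on chromosome 12 (85473890 to 85477273, plus strand). It had 379 and 428 counts in the knockout labelled Smad7-transfected, 168 and 193 in the knockout, and 31 and 33 in wild type. As normalised levels these were 24.5 and 23.1 CPM in the knockout labelled Smad7-transfected, 8.56 and 10.2 CPM in the knockout, and 1.83 and 1.84 CPM in wild type. No groups overlapped, and Fos was highest in the group where Egr1 lay near its wild-type level. Fos was 2.54-fold higher in the knockout labelled Smad7-transfected than in the knockout (log2 ratio 1.35, SE 0.098, adjusted p = 3.92e-27), 5.07-fold higher in the knockout than in wild type (2.34, SE 0.17, adjusted p = 1.01e-26), and 12.9-fold higher in the knockout labelled Smad7-transfected than in wild type (3.69, SE 0.14, adjusted p = 5.39e-55). Of all genes tested, 96.9% had a smaller fold in that last comparison.

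Ier2, a nuclear protein induced by serum and growth factors, lies on chromosome 8 (84661331 to 84662852, minus strand). It had 142 and 144 CPM in the knockout labelled Smad7-transfected, 243 and 253 CPM in the knockout, and 278 and 277 CPM in wild type. Its decline was thus mostly between the knockout labelled Smad7-transfected and the knockout (log2 fold −0.79, SE 0.039, adjusted p = 4.77e-43). In the knockout it was 1.12-fold lower than in wild type (−0.16, SE 0.037, adjusted p = 4.23e-05), which was −0.32 with GC and length offsets and −0.02 (adjusted p = 0.672) with library size scaling. The knockout labelled Smad7-transfected was 1.94-fold below wild type (−0.95, SE 0.039, adjusted p = 2.0e-52), or −0.56 with library size scaling.

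Fos rose at each comparison between these groups, and Dusp6, Etv4 and Ier2 fell at each with TMM scaling. No RefSeq promoter window was matched for Etv4 or Ier2, so the sequences just upstream of the starts of Fos and Dusp6 are shown. They are the 250 bases before the RefSeq start on GRCm38.p6, read 5′ to 3′, both on the plus strand, at chr12:85473640-85473889 for Fos and chr10:99262981-99263230 for Dusp6. Capitals mark TGACGT, the core of the cyclic AMP response element.
Fos: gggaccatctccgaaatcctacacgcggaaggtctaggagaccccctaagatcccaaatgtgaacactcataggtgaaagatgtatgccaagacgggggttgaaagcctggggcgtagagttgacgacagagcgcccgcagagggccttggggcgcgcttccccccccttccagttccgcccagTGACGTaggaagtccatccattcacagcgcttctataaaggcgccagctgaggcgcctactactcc
Dusp6: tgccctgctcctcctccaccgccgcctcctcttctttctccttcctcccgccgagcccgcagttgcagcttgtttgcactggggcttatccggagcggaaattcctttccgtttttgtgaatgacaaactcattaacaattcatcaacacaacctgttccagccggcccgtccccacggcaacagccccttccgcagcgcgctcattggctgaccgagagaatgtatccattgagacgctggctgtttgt
The Fos window holds 1 match, whose first base lies 66 bases before the start, and the Dusp6 window holds none. RefSeq promoter windows of 300 bases (250 before to 50 after the start) were matched for 5 of the 10 genes, Dusp6, Spry2, Spred1, Etv5 and Fos, with 6 windows in all. They were searched on both strands for the CArG box of serum response factor, the ETS motif CCGGAAG, the longer cyclic AMP response motif TGACGTC, which contains TGACGT, and the AP-1 motif TGANTCA. None of these 4 was found in the 6 windows. Bases further from the start were not searched, so motifs lying there would have been missed, for Fos as for the others. Among 32851 windows of the same length, 1.63% held the CArG box, 8.86% CCGGAAG, 3.21% TGACGTC, 7.51% TGACGT and 7.81% TGANTCA. The search for TGACGT was added after the sequences were seen.

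Levels between genes can be compared only per length, here as CPM per kilobase of the union of exons. Ier2 was first and Etv5 second in all 3 groups. Ier2 stood at 94.2 ± 0.88 CPM per kilobase in the knockout labelled Smad7-transfected, 163 ± 4.5 in the knockout and 182 ± 0.16 in wild type (SD, n = 2 each). Etv5 stood at 74.1 ± 1.3 CPM per kilobase in the knockout labelled Smad7-transfected, 96.5 ± 1.1 in the knockout and 87.9 ± 2.6 in wild type. Below them the order changed. In the knockout labelled Smad7-transfected it ran Spry4, Spry2, Etv4, Dusp6, Spred1, Fos, Dusp4 and Egr1. In the knockout it ran Spry4, Spry2, Dusp6, Etv4, Egr1, Dusp4, Spred1 and Fos. In wild type it ran Etv4, Dusp6, Spry4, Spry2, Spred1, Dusp4, Egr1 and Fos. Egr1 and Dusp4 in the knockout, at 15.2 ± 0.33 and 15.1 ± 0.095 CPM per kilobase, were the only neighbours whose libraries overlapped. Fos was 8th of 10 in the knockout labelled Smad7-transfected at 10.1 ± 0.39, and last in the knockout at 3.98 ± 0.48 and in wild type at 0.781 ± 0.0051. Lengths from the longest transcript gave the same order in each group.

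**Figure D3:**
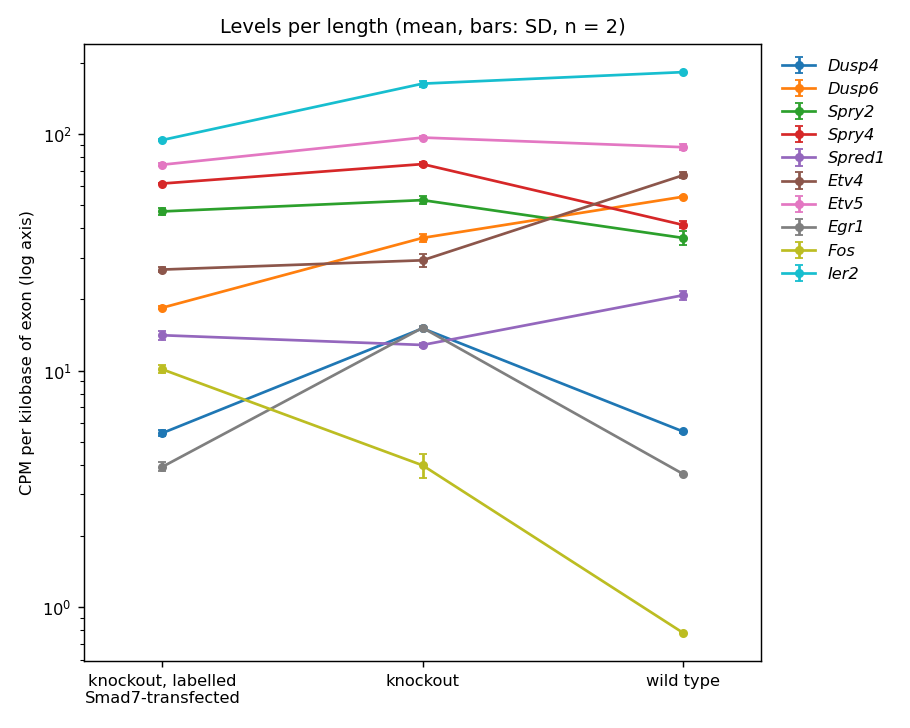
Mean level of the 10 genes in CPM per kilobase of exon (log axis) in the knockout labelled Smad7-transfected, the knockout and wild type. Error bars are SDs over 2 libraries, and lines join the values of 1 gene. The lines of Spry4 and Spry2 cross those of Etv4 and Dusp6 between the knockout and wild type, and Fos climbs over Egr1 and Dusp4 on the side of the knockout labelled Smad7-transfected.

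Other genes of the pathway were drawn from 5 lists by role. Their counts stand against 37.8% of all genes tested higher and 36.8% lower in the knockout labelled Smad7-transfected than in the knockout, the first comparison, and 34.5% higher and 33.3% lower in the knockout than in wild type. Among 8 other MAP kinase phosphatases, 3 were higher and 2 lower in the knockout labelled Smad7-transfected than in the knockout, with a median log2 fold of 0.41, and 3 were higher and 2 lower in the knockout than in wild type, with a median of −0.07. Dusp1, a nuclear phosphatase and itself an immediate early gene, had 95.8 and 96.9 CPM in the knockout labelled Smad7-transfected, 56.3 and 58.7 CPM in the knockout, and 16.0 and 15.3 CPM in wild type. It rose in both comparisons (0.74, SE 0.050, and 1.88, SE 0.069), as Fos did. Dusp9, a cytoplasmic ERK phosphatase, had 172 and 175 CPM in the knockout labelled Smad7-transfected, 254 and 259 CPM in the knockout, and 76.3 and 76.8 CPM in wild type, and changed by −0.56 (SE 0.038) and 1.74 (SE 0.041). Dusp5, a nuclear ERK phosphatase, was lower in the knockout than in wild type (−0.73, SE 0.12), and Dusp7 was lower in the first comparison (−0.58, SE 0.11). With library size scaling the first-comparison values of Dusp9 and Dusp7 were −0.32 and −0.33. Both counts of the list are close to the shares over all genes.

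Of 9 other Sprouty, Spred and receptor-level inhibitors, 8 were tested. In the knockout labelled Smad7-transfected 5 were higher and 3 lower than in the knockout (median 0.29), where 37.8% and 36.8% of all genes were. In the knockout 2 were higher and 4 lower than in wild type (median −0.10), where 34.5% and 33.3% of all genes were. Spry1 had 9.03 and 9.36 CPM in the knockout labelled Smad7-transfected, 20.5 and 21.9 CPM in the knockout, and 14.0 and 14.2 CPM in wild type, with log2 folds of −1.20 (SE 0.0996) and 0.59 (SE 0.090). Il17rd, also called Sef, an FGF receptor antagonist, changed by −0.48 (SE 0.044) and 0.63 (SE 0.045). The Ras GTPase activators went the opposite way. Rasa1 was higher under the Smad7-transfected label than in the knockout (0.87, SE 0.055) and lower in the knockout than in wild type (−0.89, SE 0.055), and Nf1, which encodes neurofibromin, was higher in the first comparison (0.69, SE 0.051). Spred2 was lower in the knockout than in wild type (−0.46, SE 0.046). With library size scaling Il17rd stood at −0.24 in the first comparison. With GC and length offsets Rasa1 stood at 0.55 and Nf1 at 0.26 in the first comparison, and Rasa1 at −0.59 and Spry1 at 0.36 in the knockout against wild type.

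Of 8 other ETS factors, 2 were higher and 4 lower in the knockout labelled Smad7-transfected than in the knockout (median −0.12), against 37.8% and 36.8% of all genes. In the knockout 2 were higher and 5 lower than in wild type (median −0.41), against 34.5% and 33.3% of all genes. Etv1, the remaining PEA3 factor, had 35.6 and 36.1 CPM in the knockout labelled Smad7-transfected, 18.45 and 21.2 CPM in the knockout, and 39.2 and 37.6 CPM in wild type. Like Etv4 it was lower in the knockout than in wild type (−0.96, SE 0.073). It was higher in the knockout labelled Smad7-transfected (0.86, SE 0.075), a call lost with GC and length offsets (0.12, adjusted p = 0.127). Elk1, an ETS partner of serum response factor, rose in the knockout over wild type (1.42, SE 0.059) with Ets2 (0.68, SE 0.075), while Elk4 fell (−0.66, SE 0.090). In the first comparison Ets2 (−0.90, SE 0.078) and the ETS repressor Erf (−0.41, SE 0.040) were lower. Erf stood at −0.16 with library size scaling, and GC and length offsets brought Ets2 to 0.44 and Etv1 to −0.44 in the knockout against wild type.

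Of 27 other immediate early genes, 26 were tested. In the knockout labelled Smad7-transfected 13 were higher and 6 lower than in the knockout (median 0.21), against 37.8% and 36.8% of all genes. In the knockout 11 were higher and 6 lower than in wild type (median 0.08), against 34.5% and 33.3% of all genes. Jun, the AP-1 partner of Fos, had 37.9 and 36.4 CPM in the knockout labelled Smad7-transfected, 9.18 and 8.31 CPM in the knockout, and 4.66 and 4.42 CPM in wild type, with log2 folds of 2.08 (SE 0.089) and 0.95 (SE 0.14). Junb, another AP-1 subunit, changed by −0.34 (SE 0.049), a call lost under library size scaling (−0.09, adjusted p = 0.0742), and by 0.55 (SE 0.049). The stress-induced factor Atf3 had 18.5 and 16.0 CPM in the knockout labelled Smad7-transfected, against 2.19 and 1.42 CPM in the knockout (3.24, SE 0.15), and Ier3 had 25.1 and 26.0 CPM there, against 5.15 and 5.47 CPM in the knockout (2.27, SE 0.11). Myc, which encodes a growth-promoting transcription factor, had 14.7 and 14.4 CPM in the knockout labelled Smad7-transfected, 22.5 and 22.03 CPM in the knockout, and 117 CPM in each wild-type library (−0.62, SE 0.085, and −2.39, SE 0.058). Srf, the serum response factor, had 15.0 and 15.1 CPM in the knockout labelled Smad7-transfected, 35.4 and 31.2 CPM in the knockout, and 51.0 and 52.6 CPM in wild type (−1.15, SE 0.080, and −0.64, SE 0.063). Btg1, an inhibitor of proliferation, and the small Maf protein gene Maff rose in the knockout over wild type (1.86, SE 0.068, and 1.34, SE 0.094). Library size scaling brought Myc to −0.37 in the first comparison, and GC and length offsets brought Junb to −0.12 there and to 0.35 in the knockout against wild type.

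Of 24 genes of the ERK cascade itself, 5 were higher and 13 lower in the knockout labelled Smad7-transfected than in the knockout (median −0.18), against 37.8% and 36.8% of all genes. In the knockout 10 were higher and 9 lower than in wild type (median −0.06), against 34.5% and 33.3% of all genes. Mapk3, which encodes ERK1, changed by −0.66 (SE 0.045) and 0.28 (SE 0.043), and the MEK2 gene Map2k2 by −0.79 (SE 0.052) in the first comparison. Braf, a Raf kinase, had 102 and 109.5 CPM in the knockout labelled Smad7-transfected, 50.2 and 50.7 CPM in the knockout, and 91.2 and 87.7 CPM in wild type, with log2 folds of 1.07 (SE 0.050) and −0.83 (SE 0.051). The Ras exchange factor gene Sos2 was higher in the first comparison (0.78, SE 0.093), and the ERK-activated kinase gene Rps6ka4 was lower (−0.76, SE 0.082). In the knockout, Frs3, an FGF receptor adaptor (1.996, SE 0.13), and Rps6ka4 (1.35, SE 0.088) were higher than in wild type. Mapk3 stood at −0.41 in the first comparison and 0.42 in the knockout against wild type with library size scaling, and at 0.10 in the knockout against wild type with GC and length offsets, which brought Braf to 0.53 in the first comparison.

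Between the knockout labelled Smad7-transfected and wild type, the medians of these lists were 0.76 for the phosphatases, 0.06 for the Sprouty group, −0.26 for the ETS factors, 0.51 for the immediate early genes and −0.11 for the cascade. The numbers higher and lower were 5 and 2, 4 and 3, 1 and 5, 16 and 7, and 10 and 12 in that order, where 43.1% of all genes tested were higher and 38.8% lower.

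**Figure D4:**
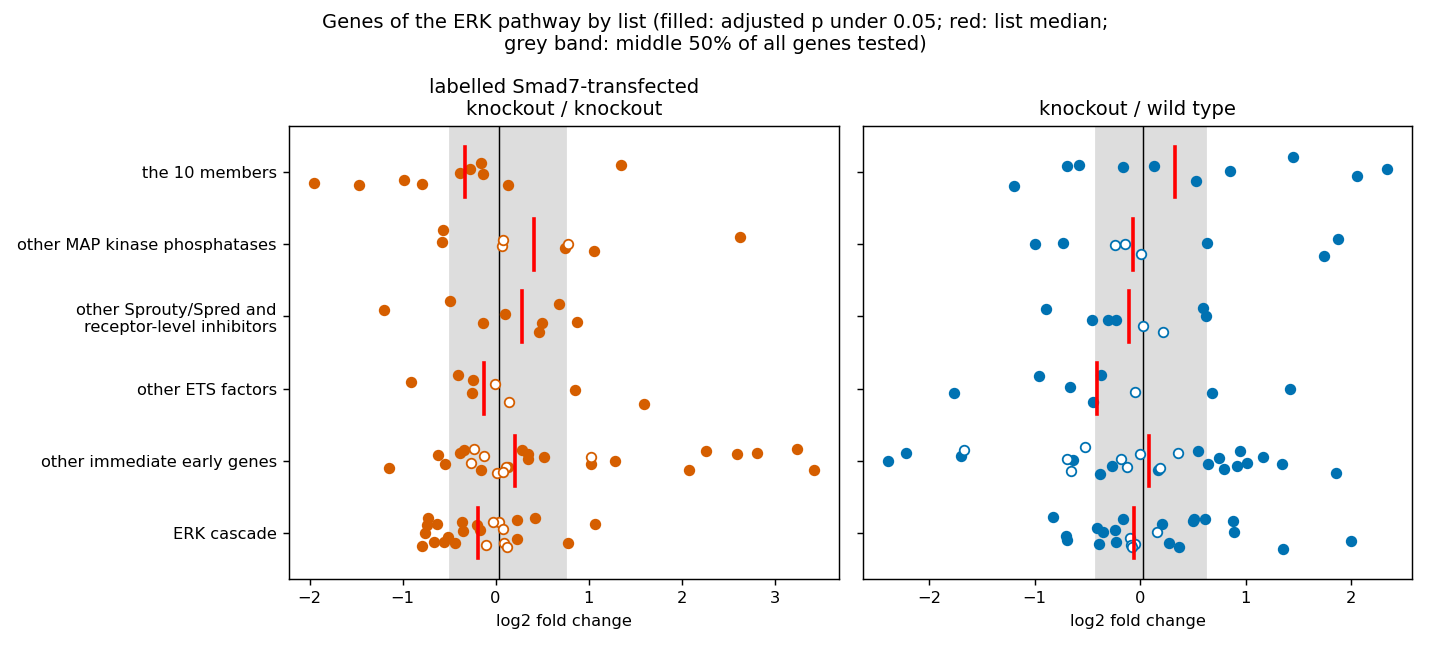
Log2 fold changes (x axis) of the 10 members and of 5 other lists of ERK pathway genes (rows), in the knockout labelled Smad7-transfected against the knockout and in the knockout against wild type. Filled points passed the adjusted p of 0.05, red bars are list medians, the black line is the median of all 17342 genes and the grey band their middle 50%. List medians lie within the band, while single genes of most lists reach far outside it in both directions.

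Genes with the nearest pattern were sought for Dusp6, Spry4, Etv5 and Egr1 among 10243 genes outside these lists. The measure was the root mean square difference of centred log2 CPM over 6 libraries, with no test. Dusp6 lay nearest to Dnaja2, which encodes a J-domain co-chaperone (difference 0.0167), and Mdn1, a ribosome assembly factor (0.0241). Spry4 lay nearest to Nemp1, a nuclear envelope protein (0.0150), and Apeh, a peptidase (0.0310). Etv5 lay nearest to the lamin B receptor Lbr (0.0133) and the sorting nexin Snx27 (0.0148). For Egr1 no gene lay so near. Its nearest were the keratin Krt17 (0.157) and Fmr1nb (0.191). The measure is not scaled to the size of a gene's change, so distances of different members are not directly comparable. Centred values ran from −0.73 to 1.35 for Egr1, −0.86 to 0.72 for Dusp6, −0.51 to 0.39 for Spry4 and −0.23 to 0.18 for Etv5. Krt17 had 15.4 and 15.6 CPM in the knockout labelled Smad7-transfected, 46.3 and 49.9 CPM in the knockout, and 11.4 and 12.02 CPM in wild type.

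**Figure D5:**
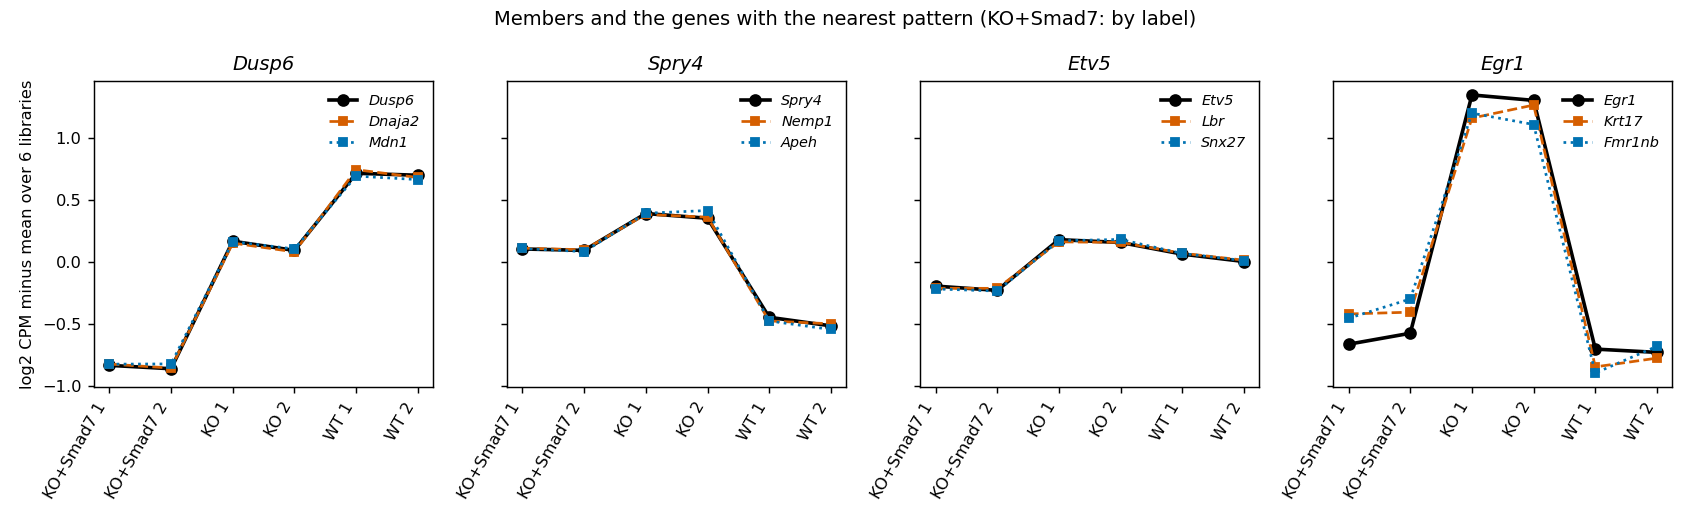
Log2 CPM minus its mean over 6 libraries (y axis) for Dusp6, Spry4, Etv5 and Egr1 (black) and the 2 genes with the nearest pattern (coloured, dashed and dotted), by library (x axis). The curves of Dusp6, Spry4 and Etv5 lie on those of their neighbours, while Krt17 and Fmr1nb run above Egr1 in the knockout labelled Smad7-transfected and below it in the knockout.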

How the data were processed

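The deposited file holds raw read counts for each gene symbol, as the authors made it. STAR and featureCounts 1.6.3 and the builds mm10 and GRCm38 are named in the submitters' processing notes, with no role or order; the sources used here give no annotation release, strand setting or handling of shared reads. Of 8 samples in the labels, 6 have a column whose name matches them. A further 2 columns matched no single sample and were not used, so the knockout transfected with lncSmad7 was not analysed here.

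Counts were filtered with filterByExpr (17342 genes left), scaled with TMM and tested with edgeR's quasi-likelihood test (edgeR 4.0.16, limma 3.58.1, R 4.3.3) in 1 fit over 3 groups with 3 residual degrees of freedom. The p-values were adjusted by the Benjamini-Hochberg method over every tested gene. The common biological coefficient of variation was 2.47%. Replicates differed by more than sampling noise in each group (chi-square per degree of freedom 1.57 to 1.89). Exons of the 10 members overlapped no other gene's exons in GENCODE M21 (GRCm38), which gave positions and lengths.

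Beside the members, the text names from each pathway list up to 2 genes with the greatest rise and fall in 2 comparisons (mean of at least 5 CPM), and Myc, Jun, Junb and Mapk3, while some genes that this rule names are not reported here. Clone names were left out of the search for like patterns. The members and lists were chosen with earlier results of these data known. Alternatives were RLE or library size scaling, DESeq2 1.42.0, other filters, a replicate block, glmTreat, GC and length offsets (mgcv 1.9.3, known for 97.8% of genes), fits of 4 libraries and each library left out in turn.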

Additional observations from a re-analysis of the deposited data

How the results depend on the processing

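Against a minimum fold of 1.5, the number of members that passed was 5 for the knockout labelled Smad7-transfected against the knockout, 6 for the knockout against wild type and 4 for the knockout labelled Smad7-transfected against wild type, and the number of all genes was 6004, 4749 and 9203, against 12945, 11747 and 14198 without it. The members that passed were Dusp4, Dusp6, Egr1, Fos and Ier2 in the first, Dusp4, Spry4, Spred1, Etv4, Egr1 and Fos in the second, and Dusp6, Etv4, Fos and Ier2 in the third. With each library left out in turn, 8 to 10, 9 to 10 and 8 members passed, and 11667 to 13195, 10712 to 11881 and 13353 to 14569 genes. Signs turned with library size scaling for Spry2 (0.0907) and Etv4 (0.117) in the first comparison and for Dusp4 (0.367) and Etv5 (0.146) in the third. They turned with GC and length offsets for Spred1 (−0.37) in the first, Etv5 (−0.0886) in the second and Egr1 (−0.13) in the third. Dusp4 in the third also turned with a filter of 1 CPM in 4 libraries (0.0825), and ranged over −0.0634 to 0.0162 with each library left out, positive without replicate 2 of the group labelled Smad7-transfected. The cause of these turns was not tested. Same-numbered replicates hardly shared deviations from their group means (correlations 0.005 to 0.026), and with the replicate block 10, 10 and 8 members passed, and 12982, 11822 and 14219 genes. With 2 libraries a group, a difference that did not pass may have gone unseen.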
